A study of Mus musculus with 14 samples.

Results

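B16F10 melanomas of mice that had received cytotoxic T lymphocytes (CTLs) were compared with untreated B16F10 tumours on days 3, 5 and 7 after the transfer. The comparison used the arrays labelled as CTL-treated without antibody and as untreated from these 3 days, 6 of the 14 arrays of the series. Its question was which transcripts differ in a tumour while transferred T cells act on it. B16F10 is a pigmented melanoma line of the C57BL/6 strain, and C57BL/6 mice carried the tumours in every group. CTL mice received, 9 days after tumour inoculation, CD90.1+ T cells activated in vitro against gp100, a pigment cell protein whose gene is Pmel. Untreated mice carried the same tumours, received no cells and were sampled on the same days. Each of these 6 arrays holds the pooled RNA of 4 tumours, so each group has 1 pool per day. The CTL and untreated pools of 1 day were hybridised on 1 slide, with the CTL pool at position 1 and the untreated pool at position 2 each time, so position and group cannot be told apart. Arrays of 2 further groups, CTLs with control rat IgG and CTLs with an antibody against interferon gamma, also entered the fit. They served to estimate the spread that remains after group and day, and their levels also counted in the choice of 1 probe per gene. Where 1 array was left out, they also bore on the estimate of the change.

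Activated CD8 T cells kill their targets with perforin and granzymes and secrete interferon gamma. Interferon gamma binds its receptor and signals through the kinases Jak1 and Jak2 to gamma-activated sites in its target genes. Irf1 is one of these targets, and Irf1 and related factors bind interferon-stimulated response elements in genes of antigen presentation and cell-autonomous defence. The cytokine is also known to slow the division of many tumour cells and to act on tumour vessels.

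All values are log2 of the processed signal of a probe minus the 75th percentile of its array, so that a level of 0 lies at that percentile and levels of different probes are not comparable. Between 48.9% and 59.7% of the spots of the 6 arrays were well above background, with the extremes on the CTL array of day 5 and the untreated array of day 7. The 75th percentile was 358, 312 and 301 units on the CTL arrays of days 3, 5 and 7, against 470, 495 and 303 units on the untreated arrays, so CTL arrays were the dimmer ones on days 3 and 5. Across genes, arrays correlated at 0.978 to 0.986 within CTL tumours, at 0.982 to 0.991 within untreated tumours and at 0.936 to 0.965 between them. Melanocyte genes marked both groups as melanoma. Pmel had levels of 8.53, 8.93 and 9.00 on CTL arrays and of 8.69, 8.35 and 8.87 on untreated arrays.

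CTL tumours had far higher levels of genes induced by interferon gamma, of antigen presentation genes, and of markers of T cells and macrophages. They had moderately lower levels of genes of mitosis, DNA replication, and sterol and fatty acid synthesis. In the fit of 12 arrays, increases were fewer and larger than decreases. In limma's moderated test with Benjamini-Hochberg adjustment over 15639 genes and a threshold of 0.05, 5432 genes passed (34.7% of those tested), 1702 higher (10.9%) and 3730 lower (23.9%). A log2 change of 3 or more was reached by 258 of the genes that rose and by 3 of those that fell. The median over all genes was -0.12. Of the genes that passed, 31.3% were higher, and with normexp background correction 43.7% were. The spread was estimated from 12 arrays. With the 6 CTL and untreated arrays alone, 1277 genes passed (8.17%), 725 higher (4.64%) and 552 lower (3.53%), 1260 of them among the 5432. Without day 3 the count was 1418 (774 higher, 644 lower), without day 5 it was 914 (502 higher, 412 lower). Without day 7 it was 5475 (2076 higher, 3399 lower). So increases were the more numerous in the 6 arrays alone, without day 3 and without day 5. Leaving out 1 array gave 2836 without the untreated array of day 3, 2884 without that of day 5 and 3267 without the CTL array of day 5.

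**Figure D1:**
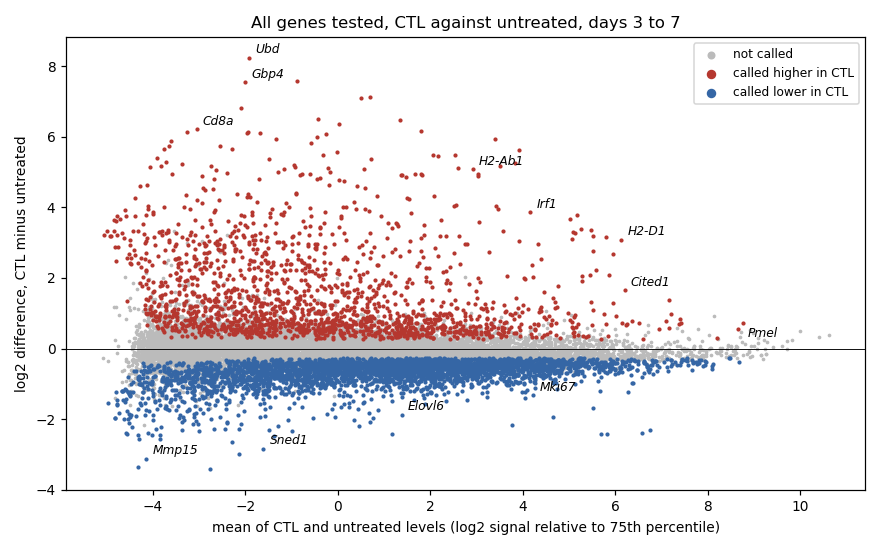
Log2 difference of CTL minus untreated tumours (vertical axis) against the mean level of both groups (horizontal axis, log2 signal relative to the 75th percentile of the array), 1 point per gene. Red points passed as higher in CTL tumours (1702 genes), blue points as lower (3730 genes) and grey points did not pass. A fitted change of 3 or more was reached by 258 genes that rose and 3 that fell, some of them against signals not well above background.

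Of the pathway from interferon gamma to its target genes, the cytokine and Irf1 rose and the receptor chains did not pass. Ifng, the cytokine itself, had levels of 2.74, 0.45 and -1.55 on the CTL arrays of days 3, 5 and 7, against -4.96, -4.32 and -6.05 on the untreated arrays. The groups did not overlap, and Ifng rose by 5.66 ± 0.55 (limma, adjusted p = 0.000295). Here and below, ± gives limma's SE from the fit of 12 arrays, with n = 3 days per group. Differences were -0.30 ± 0.12 for Ifngr1 and 0.10 ± 0.16 for Ifngr2. Irf1, a transcription factor that is an early target of the pathway, had levels of 7.64, 5.87 and 4.78 on CTL arrays and of 2.09, 2.55 and 2.06 on untreated arrays. Its rise of 3.86 ± 0.50 was largest on day 3. Of 22 tested genes of the receptor, JAK-STAT and feedback list, 13 rose and none fell (median 0.52), with 8 called in the 6 arrays alone, 8 without day 3 and 4 without day 5. The feedback inhibitor Socs1 rose by 4.28 ± 0.57 and Usp18, which restrains interferon receptor signalling, by 4.16 ± 0.36. Stat4, which acts in T and natural killer cells, was at least 3.57-fold higher. Of the 9 interferon regulatory factors 6 rose, namely Irf5 (3.03), Irf9 (1.82), Irf8 (5.45), Irf7 (4.41), Irf1 and Irf2 (1.34). Irf3 and Irf4 did not pass, at -0.11 and 0.53.

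Among the genes with the highest fitted changes was Ubd, a ubiquitin-like protein that targets others to the proteasome. Its levels were 3.52, 2.60 and 0.53 on CTL arrays and -6.70, -4.86 and -6.52 on untreated arrays. No untreated array was well above background, so the difference is a bound of at least 97.7-fold. Such a bound sets the mean of the CTL arrays against, per untreated array, the higher of the probe's own level and the lowest level well above background. Of the guanylate-binding proteins, GTPases that attack the vacuoles of intracellular pathogens, 11 were listed, 9 were tested and all 9 of those rose, from Gbp9 (1.99 ± 0.48) to Gbp6 (7.60 ± 0.88). Gbp4 had 7.54 ± 0.84, where like Gbp6 it was well above background on 1 of the 3 untreated arrays, and Gbp11 and Gbp8 were at least 52.3-fold and 18.4-fold higher. The 6 tested immunity-related GTPases, a related defence family, also rose, among them Iigp1 (6.17 ± 0.79), Tgtp1 (5.94), Igtp (5.62), Irgm2 (4.89) and Irgm1 (4.05). Of the antiviral list 30 of 34 tested genes rose and none fell (median 2.58), with 14 called without day 5. Zbp1, a sensor of nucleic acids, had 6.47 ± 0.79, Oasl2 5.13 ± 0.51, Rtp4 3.64 ± 0.34, Oasl1 3.44 and Oas3 2.56. Apol6, of the apolipoprotein L family, rose by 7.10 ± 0.95. Each of these families was highest on day 3. The immunity-related GTPase median was 7.14 on day 3, 4.34 on day 5 and 4.14 on day 7. The guanylate-binding protein median over the 3 days was 5.50, or 4.94 once the dim genes took their bound, and 9 of 9 tested members were separated from the untreated arrays, where 12.3% of all genes were. Of these 9, 2 were dim on every untreated array and were tested only through the CTL arrays.

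**Figure D2:**
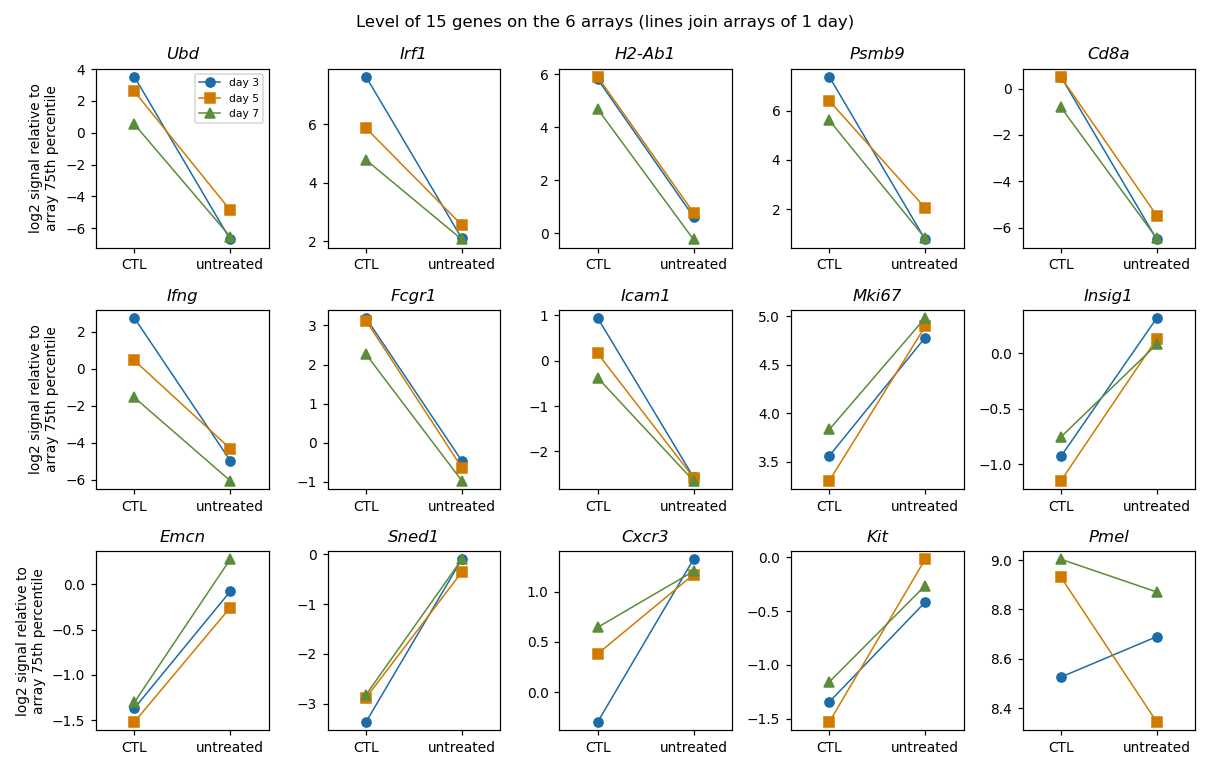
Level of 15 genes on the CTL arrays (left in each panel) and the untreated arrays (right), as log2 signal relative to the 75th percentile of the array, with vertical scales that differ between panels. Lines join the 2 arrays of 1 day (circles day 3, squares day 5, triangles day 7). In 14 of the panels the lines of the 3 days slope the same way, and in that of Pmel they do not.

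The promoters of genes that rose most were searched for the letters that interferon-activated factors bind. Windows of 250 bases before to 50 bases after the transcription start came from RefSeq (GRCm38.p6), and both strands were read. The interferon-stimulated response element was spelled GAAA, 2 bases of any kind and GAAA, and the gamma-activated site TTCNNNGAA. Of the 258 genes that rose by a log2 of 3 or more, 175 had a window, and 44 of these (25.1%) held the response element. It was held by 63 of 955 genes (6.60%) that rose by less and by 72 of 2672 (2.69%) that fell. Of the genes that did not pass, 205 of 6651 (3.08%) held it, as did 1079 of all 27025 genes with a window (3.99%). The gamma-activated site was held by 28 of the 175 (16%), by 103 of the 955 (10.8%) and by 199 of the 2672 (7.45%). Of all 27025 genes with a window, 2582 (9.55%) held it. A gene with several starts has more chances to hold a motif, and a match is a description, not a bound site. Irf1, Igtp and Gbp3 are shown because each holds a match close to its start, and capitals mark the matches. The Irf1 window shown (chr11:53769764-53770063, plus strand) has a gamma-activated site whose first base is at -90 from the start. A further Irf1 window, of another start, held none. The Igtp window (chr11:58199306-58199605, plus strand) has a gamma-activated site at -45 beside a response element at -34. The Gbp3 window shown (chr3:142559794-142560093, plus strand) has 2 overlapping response elements at -45 and -39, read on the opposite strand. A further Gbp3 window, of another start, held no response element. The windows of Cxcl9 and Ubd held neither spelling.
Irf1: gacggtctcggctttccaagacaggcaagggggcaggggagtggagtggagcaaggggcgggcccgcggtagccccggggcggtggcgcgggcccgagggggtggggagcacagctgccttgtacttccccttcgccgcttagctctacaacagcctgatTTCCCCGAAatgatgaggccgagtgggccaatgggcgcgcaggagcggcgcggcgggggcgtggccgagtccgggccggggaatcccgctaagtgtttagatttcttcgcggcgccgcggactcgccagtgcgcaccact
Igtp: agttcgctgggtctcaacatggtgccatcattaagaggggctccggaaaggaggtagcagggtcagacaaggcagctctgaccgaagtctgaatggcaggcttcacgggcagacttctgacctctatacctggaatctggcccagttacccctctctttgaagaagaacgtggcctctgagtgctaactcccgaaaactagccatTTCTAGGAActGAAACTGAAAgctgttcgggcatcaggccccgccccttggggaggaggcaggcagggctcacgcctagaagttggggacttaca
Gbp3: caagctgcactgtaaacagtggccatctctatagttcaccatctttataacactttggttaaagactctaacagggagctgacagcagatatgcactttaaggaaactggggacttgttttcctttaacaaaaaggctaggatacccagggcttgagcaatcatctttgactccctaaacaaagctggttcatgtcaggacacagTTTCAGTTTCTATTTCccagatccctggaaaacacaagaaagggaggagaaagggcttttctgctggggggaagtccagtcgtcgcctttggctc

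**Figure D3:**
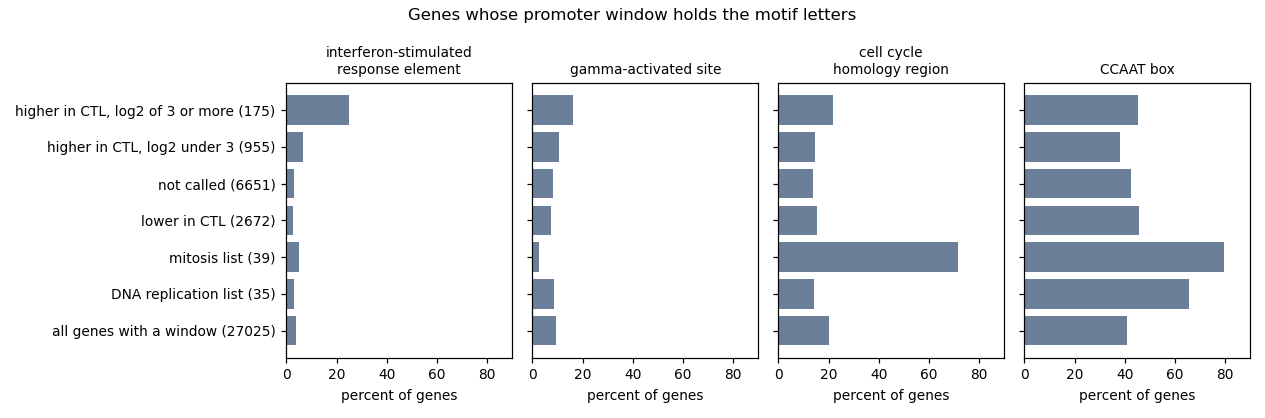
Percent of genes whose promoter window holds the letters of 4 motifs (horizontal axis), by group of genes (vertical axis, number of genes with a window in parentheses). The interferon-stimulated response element stands at 25.1% in the genes that rose by a log2 of 3 or more and at 2.69% in those that fell, and the cell cycle homology region at 71.8% in the mitosis list.

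Most tested antigen presentation genes rose, and a class II gene gave the smallest p-value of all genes tested. H2-Ab1, the beta chain of the class II molecule I-A that presents peptides to CD4 T cells, had levels of 5.81, 5.90 and 4.68 on CTL arrays, against 0.62, 0.77 and -0.24 on untreated arrays. Its same-day differences were 5.19, 5.13 and 4.92, and the change of 5.08 ± 0.09 had the smallest adjusted p, 6.06e-08. Its probe lies at chromosome 17, 33877309 to 33877368 (mm8, the build of the files). All 9 tested class II genes of 11 listed rose (median 5.08), among them H2-Aa (5.39 ± 0.16), the invariant chain Cd74 (4.96 ± 0.14), H2-Eb1 (4.95) and the transactivator Ciita (6.07 ± 0.48). Of the class I and peptide loading list 15 of 18 tested genes rose and 2, the chaperones Canx and Calr, fell (median 2.96). By limma 0 of this list fell in the 6 arrays alone, without day 3 and without day 5, where 1, 2 and 1 had an unadjusted p under 0.05, and 1 fell without the untreated array of day 3 or either array of day 5. The class I heavy chains H2-D1 and H2-K1 rose by 3.08 ± 0.12 and 3.17 ± 0.13, and their light chain B2m by 2.06 ± 0.16. H2-Q7 and H2-Q10 had 3.29 and 3.20, and H2-Q1 had 3.12, but probes of class I genes can bind transcripts of close relatives, as can those of guanylate-binding proteins. The immunoproteasome is the form that cuts proteins into class I peptides. All 5 tested genes of the list of its subunits and a proteasome activator rose, by 2.07 to 5.25. Psmb9 had levels of 7.38, 6.40 and 5.61 on CTL arrays and of 0.77, 2.06 and 0.82 on untreated arrays (5.25 ± 0.39), and Psmb8 had 5.17. Of the 33 constitutive proteasome genes none rose, 4 fell, and the median was -0.16, close to that of all genes. Those that fell were the subunits Psmd6 (-0.68), Psmd14 (-0.49) and Psmc4 (-0.39) and the activator Psme4 (-0.58), whose probes disagreed in sign. By limma 0 passed in the 6 arrays alone, where 4 had an unadjusted p under 0.05, and leaving out a day or an array gave between 0 (without day 3, day 5, or either array of day 5) and 13 (without the untreated array of day 7), with 10 without day 7 and 1 without the untreated array of day 3 or the CTL array of day 7. Canx and Calr, like Cd4, Chil3, Ch25h and Hsd17b7 in other lists, were named after their values were seen.

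Class II promoters are known for a conserved upstream block that includes a CCAAT box. All 6 class II genes with a window held CCAAT on 1 of the strands, against 11096 of all 27025 genes with a window (41.1%). CCAAT was not particular to them. It was held by 12 of 14 class I and peptide loading genes (85.7%) and 19 of 23 sterol and fatty acid synthesis genes (82.6%), but by 8 of 24 antiviral genes (33.3%). The H2-Aa window (chr17:34287774-34288073, minus strand) has CCAAT at -48, on the opposite strand, shown in capitals.
H2-Aa: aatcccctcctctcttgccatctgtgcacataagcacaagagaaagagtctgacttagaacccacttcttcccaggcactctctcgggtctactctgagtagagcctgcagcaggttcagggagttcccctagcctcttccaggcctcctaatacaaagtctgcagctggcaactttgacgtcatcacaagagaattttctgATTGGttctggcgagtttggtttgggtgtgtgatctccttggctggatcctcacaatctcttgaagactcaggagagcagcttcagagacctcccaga

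Most tested markers of T cells and their killing machinery were higher in CTL tumours on each day, by very unequal amounts. In bulk RNA more cells of a type cannot be told apart from more RNA per cell. Cd8a, the CD8 alpha chain, had levels of 0.51, 0.50 and -0.81 on CTL arrays and of -6.51, -5.49 and -6.47 on untreated arrays, none of which was well above background, so it was at least 22-fold higher. Of the 31 listed T cell genes 24 were tested and 21 of these rose (median 2.81, or 2.14 with dim genes at their bound). Fitted changes over the 24 ran from 0.15 to 6.22. Cd8a, Cd8b1, Zap70 and Lef1 are named as the 4 with the smallest p, so they do not stand for the whole list. Of the 24, 10 were dim on every untreated array and so entered the test only through CTL arrays. Trbv14, a name given through the accession of a probe in the T cell receptor beta locus whose segment is not settled, rose by 7.13 ± 0.41. The signalling kinase Zap70 and the transcription factor Lef1 were at least 12.7-fold and 2.36-fold higher. Cd8b1 rose by 4.92 with the probe used, while another of its probes was lower. Cd4, the coreceptor of helper T cells, had 0.15 ± 0.20 and did not pass. Thy1, whose CD90.1 form the transferred cells carry, rose by 1.81 ± 0.36, but did not pass in the 6 arrays alone. Of the cytotoxic list 12 of 14 tested genes rose (median 4.51, or 3.40 with the 6 dim genes at their bound). Gzmb, encoding granzyme B, had levels of 2.76, 1.08 and -0.43 on CTL arrays and of -6.00, -4.03 and -5.03 on untreated arrays. Nkg7, a protein of cytotoxic granules, rose by 5.16 ± 0.37, and granzyme A (Gzma) and perforin (Prf1) were at least 12.3-fold and 9.71-fold higher. Of 12 listed natural killer cell genes 2 were tested, the receptors Klra8 and Klra7, which were at least 1.95-fold and 2.73-fold higher. Both were dim on every untreated array and so entered the test only through CTL arrays. Of these 2 genes, 1 was called without day 3 and 1 without day 5. Of 5 tested B cell genes Ighm (2.95, but 0.15 with another probe) and Blnk (1.82) rose (40%, against 10.9% of all genes). Cd79a and Cr2 did not pass, and 1 gene was called without day 5.

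Of the 13 tested checkpoint genes 7 rose (53.8%) and 1 fell (7.69%), against 10.9% and 23.9% of all genes (median 2.13). Of the 13, 3 were dim on every untreated array and entered only through the CTL arrays. By limma 0 fell in the 6 arrays alone, without day 5 or day 7, and without the untreated array of day 3 or either array of day 5, where 1 or 2 had an unadjusted p under 0.05. Pdcd1, encoding the inhibitory receptor PD-1, rose by 2.98 ± 0.34, and Lag3 was at least 4.59-fold higher. Havcr2, encoding TIM-3, had 1.68 ± 0.14 and Vsir, encoding VISTA, 2.27. Cd274, which encodes PD-L1, had levels of 3.52, 2.60 and 1.51 on CTL arrays and of -0.52, -0.34 and 0.28 on untreated arrays. It rose by 2.74 ± 0.49, but did not pass in the 6 arrays alone.

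Most tested genes of the monocyte and macrophage list rose. Of its 28 tested genes 22 rose and 1 fell (without day 5 by limma 16 and 0, with 1 lower at an unadjusted p under 0.05), with medians of 1.78, 2.53 and 2.48 on days 3, 5 and 7. Ctss, the protease that trims the class II invariant chain, had levels of 5.00, 5.65 and 5.66 on CTL arrays, against 1.82, 1.47 and 1.15 on untreated arrays (3.96 ± 0.26). Slamf8 was at least 54.3-fold higher and the scavenger receptor Msr1 rose by 3.27 ± 0.20. The member that fell was Chil3, a chitinase-like protein of alternatively activated macrophages, with levels of 2.54, 1.84 and 1.78 on CTL arrays and of 3.41, 3.69 and 3.43 on untreated arrays. Its change was -1.46 ± 0.21, but that of Arg1, arginase 1, which is also used as a marker of that state, was 2.90 ± 0.57. Of the Fc gamma receptor list, which binds IgG, 5 of 6 rose: Fcgr4 (4.00), Fcgr1 (3.56), Fcgr3 (2.89), their signalling chain Fcer1g (2.76) and Fcgr2b (1.91). Fcgrt, which recycles IgG, did not pass at 0.21. Of 19 complement genes 12 rose and none fell (7 without day 5), with C4b at 4.24 ± 0.22, C1qc at 2.44, C1qa at 2.35 and C1qb at 1.95. Of the macrophage activation list 10 of 16 rose (5 without day 5), among them subunits of the oxidase that makes superoxide, Ncf4 (3.26) and Cybb (5.18), and Il4ra (1.74). Nos2 and Ido1 were too dim to be tested. Of 10 tested dendritic cell genes 7 rose and 1 fell (4 rose in the 6 arrays alone and 4 without day 5, and by limma 0 fell there and without day 3, with 1 at an unadjusted p under 0.05), with Cd83 at 2.19, Itgax at 2.28 and the migration receptor Ccr7 at least 4.61-fold higher. Of 6 neutrophil genes 1 rose and 1 fell (16.7% each, against 10.9% and 23.9% of all genes). Without day 5 by limma 0 rose and 0 fell, with 1 each way at an unadjusted p under 0.05, without day 7 there were 3 higher, and 2 were higher in the 6 arrays alone or without the CTL array of day 3 or of day 7. The decrease was lost without any 1 day and without any 1 array of days 3 and 5. The protease Mmp8 was at least 5.02-fold higher, and S100a8 had 2.44 ± 0.94 without passing.

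Chemokine genes were mostly higher, and the receptor of the best known interferon-induced chemokines was lower. Cxcl9, which attracts activated T cells through the receptor CXCR3, had levels of 5.05, 2.96 and 1.64 on CTL arrays and of -3.71, -2.35 and -3.37 on untreated arrays (6.36 ± 0.71). Cxcl10 and Cxcl11, its partners, had 2.02 ± 0.78 and 3.23 ± 1.10 and did not pass (limma, adjusted p = 0.0754 and 0.0511). Cxcl10 had levels of 5.70, 3.46 and 2.12 on CTL arrays and of 1.33, 2.22 and 1.66 on untreated arrays, so its difference was large on day 3 and small on day 7. Without day 7, 3 of the 4 genes of this axis were called higher, and 2 without the untreated array of day 7. The probe of Cxcr3 had levels of -0.30, 0.38 and 0.65 on CTL arrays and of 1.32, 1.17 and 1.20 on untreated arrays. Cxcr3 fell by 0.99 ± 0.20 on the log2 scale while T cell genes rose, but did not pass in the 6 arrays alone, without day 3 or without day 5. Of 53 listed other chemokines and receptors 31 were tested, of which 18 rose (58.1%) and 3 fell (9.68%), against 10.9% and 23.9% of all genes. The median was 1.84, with 11 higher without day 5. Of the 31, 3 were dim on every untreated array and entered the test only through CTL arrays. By limma 0 fell in the 6 arrays alone and without day 5, where 3 and 2 had an unadjusted p under 0.05, and 1 fell without day 3 or the untreated array of day 5. Cxcl16 rose by 3.95 ± 0.19, and Xcl1, a product of activated CD8 T cells, and the monocyte receptor Ccr2 were at least 9.20-fold and 4.81-fold higher. Of 55 listed interleukins and receptors 31 were tested, of which 19 rose (61.3%) and none fell (10 rose without day 5). Il2rb had 4.81, Il12rb1 4.78 and Il10ra 3.45, and 2 of the 31 were dim on every array of 1 group. Of 39 listed TNF ligands and receptors 24 were tested, of which 14 rose (58.3%) and 1 fell (4.17%), and 4 were dim on every array of 1 group. By limma 0 fell in the 6 arrays alone and without day 3 or its untreated array, with 1 at an unadjusted p under 0.05. Lymphotoxin beta (Ltb) had 4.95 ± 0.25, Tnfrsf18 3.00 and Tnfrsf11b 1.89. Of 31 cell death genes 14 rose (45.2%) and 2 fell (6.45%), with 8 higher in the 6 arrays alone, 9 without day 3 and 3 without day 5. By limma 0 fell in the 6 arrays alone, without day 3 or day 5 and without any 1 array but the untreated one of day 7, where 1 to 3 had an unadjusted p under 0.05, and without that array 4 fell. The inflammatory caspases Casp1 and Casp12 rose by 3.26 ± 0.26 and 5.08 ± 0.40, and Pmaip1, encoding the death-promoting protein NOXA, was at least 5.27-fold higher.

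**Figure D4:**
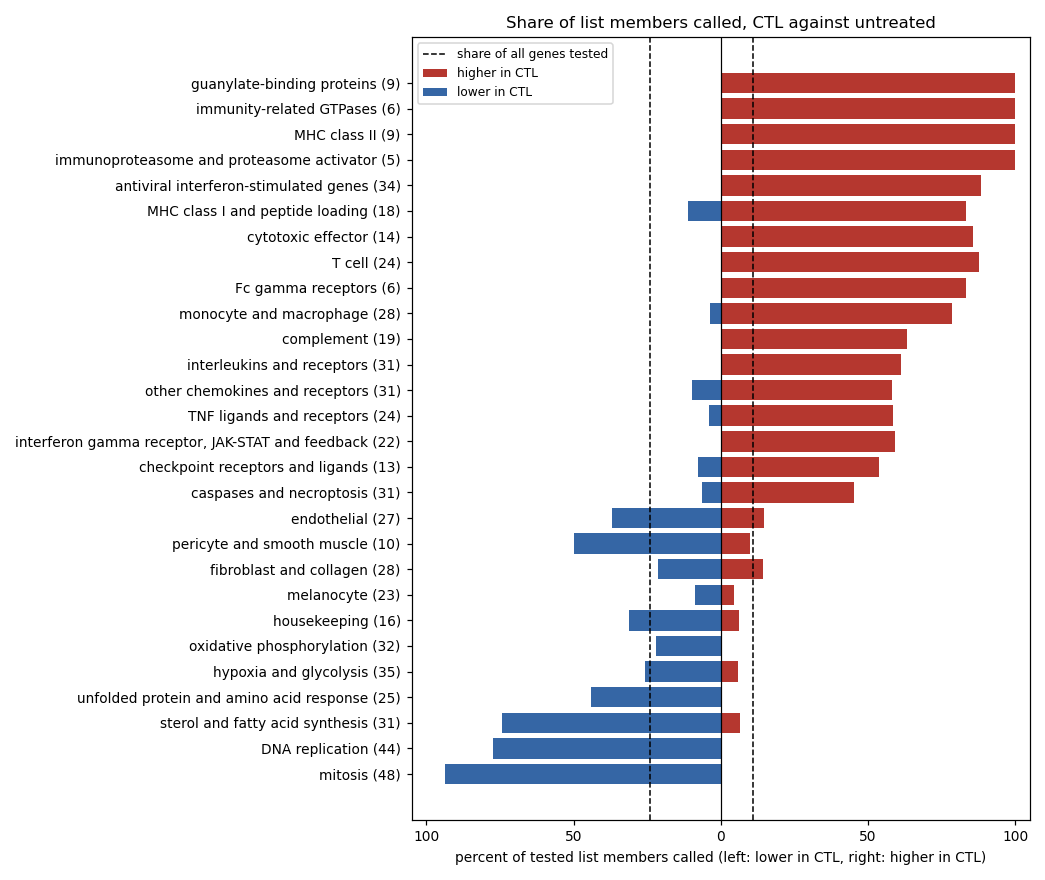
Percent of the tested members of 28 gene lists that passed as higher (red, right) or lower (blue, left) in CTL tumours, with the number tested in parentheses. Dashed lines mark the share of all genes tested, 10.9% higher and 23.9% lower. Interferon, presentation and immune cell lists exceed the line on the right, and mitosis (93.8%), DNA replication (77.3%) and sterol and fatty acid synthesis (74.2%) that on the left.

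Genes of cell division were lower in CTL tumours, by less than 1.4 on the log2 scale. Mki67, the Ki-67 antigen of dividing cells, had levels of 3.56, 3.30 and 3.83 on CTL arrays and of 4.78, 4.90 and 4.98 on untreated arrays. The groups did not overlap, and Mki67 fell by 1.32 ± 0.14, or 2.50-fold. Of 48 tested mitosis genes 45 fell and none rose (median -0.84), and 44 were separated from the untreated arrays, where 30.2% of all genes were. Ncapg, a condensin subunit, fell by 1.08 ± 0.15, Cenpe, a motor protein of kinetochores, by 0.96 ± 0.15, Hmmr by 0.73 ± 0.10 and cyclin B1 (Ccnb1) by 1.10 ± 0.25. The medians of the list were -0.99, -1.13 and -0.42 on days 3, 5 and 7. Of 44 tested DNA replication genes 34 fell and none rose (median -0.72), among them Rpa1, which coats single-stranded DNA (-1.23 ± 0.17), the polymerase subunit Pole (-1.12), Rrm1, which makes deoxynucleotides (-0.94), and the origin protein Orc2 (-0.81). These calls depended on the number of arrays. In the 6 arrays alone 7 mitosis and 3 replication genes passed as lower, without day 3 it was 6 and 2, and without day 5 it was 5 and 1. Without the untreated array of day 5 the counts were 29 and 15, and replication had 14 without the untreated array of day 3, 21 without the CTL array of day 3 and 22 without that of day 5. Without day 7 they were 46 and 37. The list medians moved less, between -1.04 and -0.70 for mitosis and between -0.93 and -0.61 for replication when a day or an array was left out.

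Regulators of entry into the cell cycle moved both ways. Skp2, which marks the inhibitor p27 for degradation, fell by 1.00 ± 0.18, with levels of -1.59, -1.35 and -1.15 on CTL arrays and of -0.45, -0.25 and -0.38 on untreated arrays. Cks1b, its cofactor, fell by 0.74 ± 0.13. Cdkn1b, encoding p27 itself, had 0.19 ± 0.13 and did not pass. The inhibitor Cdkn1c fell by 1.24 ± 0.19, and the kinase Cdk6 rose by 1.00 ± 0.17, a call that was lost in the 6 arrays alone. Of the 16 tested genes of this list 5 fell (31.3%) and 2 rose (12.5%), against 23.9% and 10.9% of all genes. In the 6 arrays alone 2 fell, without day 3 or day 5 it was 1, and without any 1 array of those days it was 3. By limma 0 rose in the 6 arrays alone, without day 3 and without day 5, where 2, 4 and 1 had an unadjusted p under 0.05.

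The cell cycle homology region is an element found at the start of many genes that peak in G2 and mitosis. Spelled TTTGAA and read on both strands, it was held by the windows of 28 of 39 mitosis genes (71.8%), against 5 of 35 replication genes (14.3%). It was held by 413 of 2672 genes that fell (15.5%) and by 5466 of all 27025 genes with a window (20.2%). The mitosis windows were also rich in CCAAT, in 31 of 39 (79.5%), against 23 of 35 replication genes (65.7%) and 41.1% of all genes with a window. Mki67, Ncapg and Hmmr are shown, 3 of the 4 mitosis genes with the smallest p. Capitals mark the element, at -116 and -98 in Mki67 (chr7:135716330-135716629, minus strand), at -30 in Ncapg (chr5:45669675-45669974, plus strand) and at 9 in Hmmr (chr11:40733388-40733687, minus strand). The window of Cenpe, the other of the 4, is not shown.
Mki67: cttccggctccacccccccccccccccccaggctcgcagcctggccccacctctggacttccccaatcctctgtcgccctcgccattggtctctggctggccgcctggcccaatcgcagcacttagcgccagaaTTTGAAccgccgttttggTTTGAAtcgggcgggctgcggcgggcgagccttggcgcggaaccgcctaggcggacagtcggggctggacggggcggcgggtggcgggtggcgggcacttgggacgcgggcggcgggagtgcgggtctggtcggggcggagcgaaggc
Ncapg: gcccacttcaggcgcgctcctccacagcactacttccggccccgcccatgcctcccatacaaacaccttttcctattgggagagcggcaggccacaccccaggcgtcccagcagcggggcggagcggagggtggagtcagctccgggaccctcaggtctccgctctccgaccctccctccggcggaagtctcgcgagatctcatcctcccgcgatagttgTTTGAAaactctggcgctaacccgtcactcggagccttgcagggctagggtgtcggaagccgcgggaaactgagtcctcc
Hmmr: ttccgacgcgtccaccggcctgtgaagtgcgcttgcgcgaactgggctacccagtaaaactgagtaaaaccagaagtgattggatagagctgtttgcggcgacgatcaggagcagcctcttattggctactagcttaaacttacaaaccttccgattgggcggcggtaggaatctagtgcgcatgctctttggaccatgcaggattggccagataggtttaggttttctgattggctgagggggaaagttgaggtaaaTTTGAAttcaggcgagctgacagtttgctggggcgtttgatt

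Genes of sterol and fatty acid synthesis were lower in CTL tumours on each day. Cholesterol synthesis is switched on by the factor encoded by Srebf2, which Insig1 holds back in the endoplasmic reticulum when sterols are plentiful, and Insig1 is itself one of its targets. Insig1 had levels of -0.93, -1.15 and -0.76 on CTL arrays and of 0.32, 0.13 and 0.08 on untreated arrays, and fell by 1.12 ± 0.11. Elovl6, which lengthens fatty acids, had levels of 0.28, 0.30 and 0.76 on CTL arrays and of 2.49, 2.42 and 2.06 on untreated arrays, and fell by 1.88 ± 0.20. The groups did not overlap for either gene. Of 31 tested genes of the list 23 fell and 2 rose (median -0.62), with Srebf2 at -0.89 ± 0.09 and the desaturase Scd2 at -0.97. The 2 that rose were Ch25h, which makes 25-hydroxycholesterol, an interferon-induced oxysterol known to restrain the Srebf2 pathway (2.38 ± 0.35), and Hsd17b7 (0.51 ± 0.10), as the exceptions of the list. By limma 0 rose without day 5, where both had an unadjusted p under 0.05, and 1 rose in the 6 arrays alone and with normexp. In the 6 arrays alone 7 fell, without day 3 it was 11, without day 5 it was 8, and without the untreated array of day 3 it was 15. The sterol response element, spelled TCACNCCAC, was held by 1 of 23 genes of this list with a window, against 388 of all 27025 (1.44%). The window of Insig1 did not hold that spelling.

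Other metabolic lists moved less. Of 25 genes of the unfolded protein and amino acid response 11 fell and none rose (median -0.36), among them the chaperone Hspa5 (-0.70 ± 0.13), Hsp90b1 (-0.56) and the lipoprotein receptor Vldlr (-1.03), but 1 was called in the 6 arrays alone, 1 without day 5, 4 without day 3 or the CTL array of day 5, and 5 without the untreated array of day 3 or of day 5. Of 35 hypoxia and glycolysis genes 9 fell and 2 rose, a share of 25.7% lower that is near the 23.9% of all genes. Ankrd37, a target of the hypoxia factor, fell by 1.31 ± 0.18, Slc2a3, a glucose transporter, by 0.64 and Ldha by 0.42, while Pfkfb3, a driver of glycolysis, rose by 0.69. In the 6 arrays alone 1 gene of this list was lower, as without day 3 or day 5, 3 were without either array of day 5, and 15 were with normexp. The 2 increases were lost in the 6 arrays alone, without day 3, without day 5 and with normexp, where by limma 0 passed and 1 to 3 had an unadjusted p under 0.05. Of 32 oxidative phosphorylation genes 7 fell (21.9%), with Ndufa4 at -0.49. By limma 0 passed in the 6 arrays alone, without day 3 and without day 5, where 3, 3 and 4 had an unadjusted p under 0.05, and 12 passed without the untreated array of day 7. The other arrays gave between 1 and 3 when left out. Of 16 housekeeping genes 5 fell (31.3%, with 1 in the 6 arrays alone, without day 3 or without day 5, and 2 without the untreated array of day 3 or of day 5), with the transferrin receptor Tfrc at -1.20 ± 0.14 and Gusb at -0.80, and B2m rose.

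**Figure D5:**
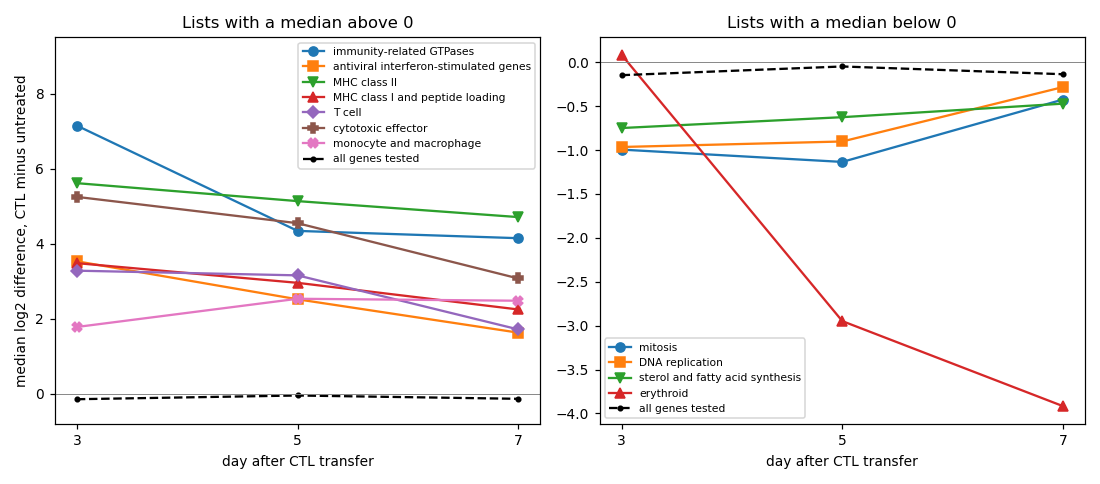
Median log2 difference of CTL minus untreated tumours over the tested members of gene lists (vertical axis) on days 3, 5 and 7 after transfer (horizontal axis), with the median of all genes dashed. In the T cell, cytotoxic and macrophage lists some members were dim on every untreated array. Immunity-related GTPases stand at 7.14, 4.34 and 4.14, class II genes at 5.61, 5.13 and 4.71, and erythroid genes stand at 0.09, -2.95 and -3.92.

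Melanocyte genes showed little change as a group. Of 23 tested genes 1 rose and 2 fell (3 rose without the CTL array of day 3, and 1 fell without it, without day 3 or day 5, or without the untreated array of day 3 or day 7), and the median was 0.04, or -0.16 with normexp. Cited1, a transcriptional coactivator of melanocytes, had levels of 7.11, 7.26 and 6.70 on CTL arrays and of 5.23, 5.35 and 5.54 on untreated arrays, and rose by 1.65 ± 0.20. Kit, the receptor of stem cell factor, had levels of -1.34, -1.53 and -1.16 on CTL arrays and of -0.42, -0.02 and -0.26 on untreated arrays, and fell by 1.11 ± 0.17. Ednrb, an endothelin receptor, had -0.69 ± 0.23 and passed narrowly (limma, adjusted p = 0.0465), but was 0.39 with normexp. Pmel, which encodes the target antigen, had 0.18 ± 0.18, the pigment enzyme gene Tyr -0.62 ± 0.27 and the lineage factor Mitf 0.54 ± 0.23, and none of them passed.

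Vessel genes moved both ways. Icam1 and Vcam1, the adhesion molecules through which activated endothelium and other cells hold leukocytes, rose by 2.84 ± 0.22 and 2.99 ± 0.25, and Fli1, a transcription factor of endothelial and blood cells, by 1.96. Icam1 had levels of 0.94, 0.16 and -0.37 on CTL arrays and of -2.56, -2.57 and -2.64 on untreated arrays. Emcn, a sialoprotein of capillaries and veins, had levels of -1.37, -1.52 and -1.30 on CTL arrays and of -0.08, -0.26 and 0.28 on untreated arrays, and fell by 1.38 ± 0.17. Esm1, a marker of sprouting tip cells, had levels of -0.82, -0.64 and 0.44 on CTL arrays and of 1.54, 1.38 and 2.30 on untreated arrays, and fell by 2.08 ± 0.32. Of 27 tested endothelial genes 10 fell (37.0%) and 4 rose (14.8%), against 23.9% and 10.9% of all genes. The median of -0.52 turned to 0.18 with normexp background correction. In the 6 arrays alone 2 fell, without day 3 it was 1, without day 5 it was 3, and without day 7 there were 7 higher. Single arrays moved it as well, to 5 without the CTL array of day 3 and to 6 without the untreated array of day 3, the CTL array of day 5 or the CTL array of day 7. Angpt2, a vessel-destabilising ligand, fell by 0.93 ± 0.12. Kdr, the main VEGF receptor, had -0.96 ± 0.24 and passed, but was 0.18 with normexp and did not pass in the 6 arrays alone. Vegfa had -0.69 ± 0.25 without passing, and its probes disagreed in sign. Of 10 tested pericyte and smooth muscle genes 5 fell and 1 rose, and the median of -0.70 turned to 0.11 with normexp. Cspg4, the NG2 proteoglycan of pericytes that melanoma cells also carry, fell by 1.56 ± 0.12, Mcam, also shared with melanoma, by 1.16 ± 0.18 and the potassium channel Kcnj8 by 1.67 ± 0.30. The basement membrane collagens Col4a1 and Col4a2 fell by 1.31 ± 0.16 and 1.20 ± 0.13, among 6 lower (21.4%) and 4 higher (14.3%) of 28 fibroblast and collagen genes, shares near the 23.9% and 10.9% of all genes (median -0.04, or 0.23 with normexp). In the 6 arrays alone this list had 2 higher and 4 lower. Without day 5 it had 3 lower and by limma 0 higher, with 4 higher at an unadjusted p under 0.05. There were 2 higher without day 3 or its CTL array, and 7 higher without the untreated array of day 7. Without day 5 the pericyte list had 2 lower, and 3 without day 7, the untreated array of day 3 or the CTL array of day 7. Its 1 increase was lost without day 3, day 5 or any 1 array of those days. Red cell genes moved beside them. Hba-a1, a haemoglobin chain, had levels of 5.02, 4.17 and 4.61 on CTL arrays and of 5.11, 7.29 and 8.66 on untreated arrays, so the CTL array was far lower on days 5 and 7 and close to the untreated array on day 3. The erythroid median was 0.09, -2.95 and -3.92 on days 3, 5 and 7 over 5 tested genes, of which 3 fell, and its part in the vessel result was not tested. By limma none of the 5 passed in the 6 arrays alone, where 3 had an unadjusted p under 0.05, nor without day 5, day 7 or any 1 array of those days, where 0 to 4 had.

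The largest decreases belong to genes of varied function. Sned1, a protein of the extracellular matrix, had levels of -3.37, -2.89 and -2.82 on CTL arrays and of -0.10, -0.35 and -0.10 on untreated arrays, and fell by 2.84 ± 0.15, or 7.18-fold. The differences of its 3 probes ran from -2.84 to -1.29. Aqp1, a water channel, had levels of -2.61, -5.39 and -2.89 on CTL arrays and of -0.71, -1.20 and 0.02 on untreated arrays, and fell by 3.00 ± 0.50, with the CTL array of day 5 far below the other CTL arrays, and 2 of the 3 CTL arrays well above background. Mmp15, a membrane metalloprotease, was not well above background on any CTL array and was at least 2.34-fold lower. Bounds of the same kind were 2.33-fold for the carbonic anhydrase Car12, 2.23-fold for Dppa3, 1.99-fold for Carf, 1.71-fold for Plekhg4 and 1.62-fold for Higd1b. Fhod3, an actin regulator, fell by 2.64 ± 0.33, the potassium channel subunit Kcne3 by 2.48 ± 0.42 and Cyp3a13 by 2.44 ± 0.55. Fgf21 had -3.42 ± 1.00, but was well above background on 1 of the 3 CTL arrays, and its levels of -1.56, -5.42 and -6.43 on CTL arrays overlapped those of 0.09, -3.01 and -0.22 on untreated arrays. With normexp, Carf, Plekhg4, Higd1b and Cyp3a13 were no longer below 0. The other decreases with the smallest p were those of Exoc3l2 (-1.95 ± 0.12), the transcription factor Sox21 (-1.84 ± 0.13), Cracd (-1.83), Ica1l (-1.73), Cspg4, the xylosyltransferase Gxylt1 (-1.50 ± 0.10) and the noncoding transcript Lockd (-1.37).
Of 28 metalloproteases and inhibitors 7 fell (25%, against 23.9% of all genes) and 5 rose, and the median of -0.14 turned to 0.27 with normexp. Adam12 was at least 3.01-fold lower, Adamts20 fell by 2.14 ± 0.23, and the collagenase Mmp13 rose by 3.05 ± 0.31. Of 28 genes of the TGF-beta and Wnt pathways 6 rose (21.4%) and 3 fell (10.7%), against 10.9% and 23.9% of all genes. Among them were Inhba, an activin subunit (4.16 ± 0.55), Tgfbi (2.78 ± 0.24) and the receptor Tgfbr1 (-0.51). Of 20 p53 targets 4 rose (20%) and 6 fell (30%), against 10.9% and 23.9% of all genes. Aen had -0.89, Zmat3 -1.33 and Ei24 -0.53 beside the rise of Pmaip1. In the 6 arrays alone, without day 3 and without day 5, 1 p53 target rose and 2 fell. Leaving out single arrays of days 3, 5 or 7 gave 1 to 4 higher and as few as 3 lower. The metalloproteases had 3 higher and 3 lower in the 6 arrays alone, 4 lower without day 3, and 2 higher and 3 lower without day 5. The TGF-beta and Wnt list had 3 higher without day 5, and 1 lower without any 1 day or without the CTL array of day 7. In the 6 arrays alone it had 4 higher and by limma 0 lower, with 3 lower at an unadjusted p under 0.05. With normexp it had 8 higher and by limma 0 lower, with 1 lower at an unadjusted p under 0.05.

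Markers of tissue that can be dissected with a tumour were also measured. Of 6 keratinocyte genes 4 rose (66.7%) and 1 fell (16.7%), against 10.9% and 23.9% of all genes (median 0.93). Those that rose were Krt14 (1.49), Krt10 (1.22, but 0.26 with another probe), Krt5 (1.13) and Krt17 (0.74). Sfn, another gene of squamous epithelium, had -0.84. In the 6 arrays alone 2 keratinocyte genes rose, and by limma 0 without day 5, where 4 had an unadjusted p under 0.05. By limma 0 fell in either setting. Of 11 skeletal muscle genes 3 fell (27.3%, against 23.9% of all genes, and a median of 0.42 with normexp), of which by limma 0 passed without day 3 or day 5 and 1 without day 7 or any of 4 single arrays, with 3 or fewer at an unadjusted p under 0.05. Of 6 adipocyte genes, 2, Pparg (0.68) and Lpl (1.15), rose (33.3%, against 10.9% of all genes), and the median was 0.82. By limma 0 passed without day 5 or without its untreated array, where 4 and 3 had an unadjusted p under 0.05. There was 1 in the 6 arrays alone, without day 3, without day 7 or without either array of day 7, and 5 passed with normexp.

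The arrays of CTLs with control IgG, which come from other mice but the same slides, also held CTL tumours. H2-Ab1 stood at 5.17, 5.43 and 4.17 there, against 2.28, 2.53 and 1.37 with the antibody against interferon gamma. Mki67 had 3.85, 3.43 and 4.15 with IgG and 4.67, 4.80 and 4.93 with the antibody, and Insig1 -0.65, -0.75 and -0.65 with IgG and 0.51, 0.29 and 0.32 with the antibody. Sned1 had -3.09, -3.09 and -2.95 with IgG and -0.61, -0.84 and -0.40 with the antibody. Other genes differed from these, so the genes given here do not stand for all. Krt14 had -2.72, -3.06 and -2.19 with IgG, close to -2.83, -2.80 and -2.09 on untreated arrays. Exoc3l2 stood at -3.79, -3.68 and -3.28 with IgG and at -3.80, -3.39 and -3.36 with the antibody. Its untreated levels were -2.49, -2.02 and -1.87. These levels are given side by side with no test.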

How the data were processed

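RNA of pooled tumours was hybridised to 1-colour Agilent mouse arrays, labelled with Cy3. Agilent Feature Extraction read the spots (version 9.5 per the submitters' processing notes, 9.5.3.1 per the file headers), and the deposited intensity is the processed signal, per the file headers. The authors' deposited table of log2 values differed from log2 of that signal by a constant on each array.

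From the scanner output, control spots and outlier flags were left out, log2 signals were scaled to the 75th percentile of each array, and spots of a probe were averaged. Of 41174 probes, 24375 were named through an accession (RefSeq), 6301 had a current name, 2426 were named by a synonym and 8072 kept the name in the files. Probes well above background on at least 3 of the 6 CTL and untreated arrays were kept (23083), with 1 probe per gene, that with the highest mean over the 12 arrays. limma 3.58.1 (R 4.3.3) fitted arm and day, which is also slide, on 12 arrays of 4 arms (days 3, 5 and 7), and p-values were adjusted by Benjamini-Hochberg over all genes at a threshold of 0.05. Each arm has 1 pool per day (n = 3 days), and the fit takes out the mean of each day. The SE and p-values therefore measure the spread that arm and day leave over across the 12 arrays of 4 arms. They do not measure the spread between mice, nor that of the 3 same-day CTL and untreated differences alone. The number of arrays limits the precision. The fit was tested on simulated data.

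The members and gene lists were chosen with earlier results of these data known. Genes were named by a rule: the 12 highest and 12 lowest changes and the 8 smallest p in each direction among steady genes well above background, up to 4 members with the smallest p per list, a fixed set, and all members of lists of 12 or fewer measured genes. The alternatives tried were other models, background correction, scaling, filters, probe rules and leaving out each day or array. Day 1 was left out, and values of some genes are not reported here.

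The arm and day model uses the day as the pairing. Deviations of CTL and untreated arrays of the same day correlated at 0.199, -0.0378 and 0.0611.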

Additional observations from a re-analysis of the deposited data

How the results depend on the processing

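Over 12 arrays 5432 genes were called. There were 1277 in the 6 CTL and untreated arrays alone with the day as a replicate block (1260 of them among the 5432), 2409 over 14 arrays with 1 effect for days 1 to 7 (2397 shared), and 3281 of 27585 genes with no filter on dim probes (2949 shared). With normexp 4967 were called, 3581 of them shared, and 589 of the 5432 changed sign. Without the replicate block 4993 were called. Leaving out a day or an array gave between 914 and 6962. The other alternatives stayed within 1.5 times. The 6-array fit has fewer samples by construction, the fit without a filter tests more genes, and for the other settings the cause was not tested. Of 196 genes named, 180 were called, and 174 of these kept their sign in all alternatives that left nothing out. The 6 that changed sign did so with normexp background correction, with Carf at 0.057, Cyp3a13 at 0.015, Ednrb at 0.39, Higd1b at 0.33, Kdr at 0.18 and Plekhg4 at 0.25, and the cause was not tested. Of 46 lists the median of 9 changed sign in some alternative, among them the endothelial and pericyte lists with normexp. Named genes that remained called numbered 156 with normexp, 144 in the 6 arrays alone and 129 without day 5. Dim probes limit the lower side: 115 genes called higher were well above background on no untreated array, and 133 called lower on no CTL array.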
